A study of Mus musculus with 24 samples.

Results

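The cell cycle and DNA replication genes of mouse liver were followed in 24 livers, 1 array per mouse. The list was set by name, with earlier results of these data known. It holds 45 genes in 5 roles. These are origin licensing and helicase, S phase synthesis, regulators of G1 and of entry into S phase, G2 and mitosis, and inhibitors. A gene counted as measured where a probe set carried its symbol alone, and the brightest probe set was kept. By this rule 39 of the 45 had a value, out of 18820 named genes in all, and Gins2, Tyms, Rfc4, Ccne2, Ccnb1 and Foxm1 were not analysed here. The mice were male C57BL/6 animals of 9 to 12 weeks on chow, either wild type (WT) or lacking the bile acid receptor FXR (FXR-/-, labelled FXRKO). They were gavaged daily for 7 days with obeticholic acid (OCA, INT-747), a semi-synthetic FXR agonist, at 10 mg/kg/day, or with the vehicle, 1% methyl cellulose. This gave 4 groups of 6 mice: WT vehicle, WT OCA, FXRKO vehicle and FXRKO OCA. The labels name the knockout only as FXR-/- and do not say how the control mice were related to it. The values are deposited log2 expression values of whole liver, in which more dividing cells and more transcript per cell cannot be told apart.

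A dividing cell first loads the MCM2-7 helicase onto replication origins in G1. D-type cyclins with CDK4 then inactivate the retinoblastoma protein, which frees E2F factors to switch on the genes of S phase. The genes of G2 and mitosis come on later, under MuvB complexes with B-MYB and FOXM1, and CDK inhibitors such as p21 act against these steps. Hepatocytes of an adult liver are mostly quiescent, and FXR is a sensor of bile acids, which are known to drive hepatocyte growth after injury.

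Stretches of promoter are shown first, since members of one role share known control letters there. A window of 250 bases before and 50 bases after the start was given in RefSeq (GRCm38.p6) for 36 of the 45 members, as 43 windows. The letters searched on both strands were TTTGAA or TTCGAA (the cell cycle homology region of late genes), CCAAT (read as ATTGG on the other strand; the NF-Y box), and TTTCCCGC, TTTGGCGC or TTTCGCGC (E2F). The words of different motifs can share letters at their ends. Each line is a stretch of 70 bases that ends before the start, read 5′ to 3′ on the strand of the gene, with motif letters in capitals. The first 5 are late genes that were higher in knockout liver, the next 2 are helicase genes that were higher, and the last 2 are Mcm10, which was lower, and Pcna, which did not pass the test.
Cdk1, chr10:69352914-69352983, minus strand: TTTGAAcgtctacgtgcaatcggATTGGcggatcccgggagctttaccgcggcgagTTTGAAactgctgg
Top2a, chr11:99024240-99024309, minus strand: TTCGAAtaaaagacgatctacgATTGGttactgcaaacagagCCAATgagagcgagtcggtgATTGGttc
Mki67, chr7:135716451-135716520, minus strand: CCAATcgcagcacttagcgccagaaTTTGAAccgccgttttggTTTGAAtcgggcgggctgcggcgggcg
Ccnb2, chr9:70421555-70421624, minus strand: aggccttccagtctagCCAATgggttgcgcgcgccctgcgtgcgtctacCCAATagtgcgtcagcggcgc
Gas2l3, chr10:89443968-89444037, minus strand: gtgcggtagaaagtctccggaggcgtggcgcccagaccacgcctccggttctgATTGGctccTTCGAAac
Mcm2, chr6:88898781-88898850, minus strand: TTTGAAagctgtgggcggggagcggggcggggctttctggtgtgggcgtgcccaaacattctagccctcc
Mcm6, chr1:128359706-128359775, minus strand: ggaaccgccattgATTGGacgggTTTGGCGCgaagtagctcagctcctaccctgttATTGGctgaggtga
Mcm10, chr2:5012792-5012861, minus strand: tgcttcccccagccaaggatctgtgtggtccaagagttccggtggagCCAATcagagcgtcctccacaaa
Pcna, chr2:132253198-132253267, minus strand: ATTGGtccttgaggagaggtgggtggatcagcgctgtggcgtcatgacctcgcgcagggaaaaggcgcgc

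The homology region letters stood in 30.2% of the members' windows and in 19.2% of all 32851 windows of the table. CCAAT stood in 65.1% against 37.4%, and the E2F words in 25.6% against 1.84%. By role, 10 of the 12 genes of G2 and mitosis with a window held the homology region letters and 11 held CCAAT, while 1 held an E2F word. Among the licensing genes 6 of 8 held an E2F word and 2 held the homology region letters. The letters did not follow the response closely: of the members with a value, homology region letters stood in 10 of the 18 that were higher in knockout liver under vehicle and in 3 of the 14 not called, but E2F words stood in 5 of the 18 and in 6 of the 14. These are matches of letters in fixed windows and say nothing of binding.

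The groups and arrays were checked before the members were compared. Nr1h4, the gene that encodes FXR, read 9.88 to 10.13 in FXRKO vehicle and 9.96 to 10.30 in WT vehicle, so its probe set does not show the deletion. Nr0b2, a direct FXR target, read 5.87 to 8.62 in the 12 WT arrays and 3.40 to 4.82 in the 12 FXRKO arrays, and in WT liver it was higher under OCA (1.41 ± 0.25 log2, SE, adjusted p = 0.0244). WT vehicle replicate 6 stood apart, with 532 genes over 2-fold from its own group against 2 to 90 in the other arrays. Array names carry a code number (5, 7 or 9) whose meaning is not given: all WT OCA arrays and WT vehicle replicates 5 and 6 bear 5, WT vehicle replicates 1 to 4 and FXRKO vehicle replicates 3 to 6 bear 7, and the other 8 FXRKO arrays bear 9. The names also carry a letter from A to H, likewise unexplained, which no fit used. It runs from A to F in WT OCA and from C to H in FXRKO OCA. Odorant and vomeronasal receptor genes (1157), which liver is not known to use, gave the level of unused genes, with a 95th percentile of 3.40 to 3.51 over the groups. Of the 39 members 36 to 38 lay above it, depending on the group. By group mean, Bub1 lay below it in all 4 groups, Cdc6 in 3 and Uhrf1 in 1.

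FXR loss went with higher cell cycle transcripts. Under vehicle 23 of the 39 members were higher and 2 were lower in FXRKO than in WT liver (limma, adjusted p below 0.05 over all named genes). That is 59.0% of the members higher, against 15.4% of all genes, and 5.13% lower, against 12.1%; in either direction 64.1% of members and 27.5% of all genes were called. The median change was 0.55 log2 over the members and −0.03 over all genes. The list was chosen with earlier results of these data known, so its excess over all genes is a description and no independent test. In 17 members every FXRKO vehicle array lay above every WT vehicle array and in 2 every one lay below, where 9.4% and 5.67% of all genes did so. The rise was uneven between roles: 11 of 13 genes of G2 and mitosis, 5 of 10 licensing genes, 4 of 7 regulators of G1, 2 of 3 inhibitors and 1 of 6 S phase genes were higher. The split of calls depends on the scaling. Centring each array on the median of the named genes, chosen after seeing the data, gave 19 members higher and 5 lower under vehicle, against 9.44% and 44.4% of all genes, and 16 and 9 under OCA, against 9.98% and 49.0%. Quantile normalization gave 20 and 3 under vehicle (13.4% and 15.2% of all genes) and 18 and 4 under OCA (14.9% and 17.1%).

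**Figure D1:**
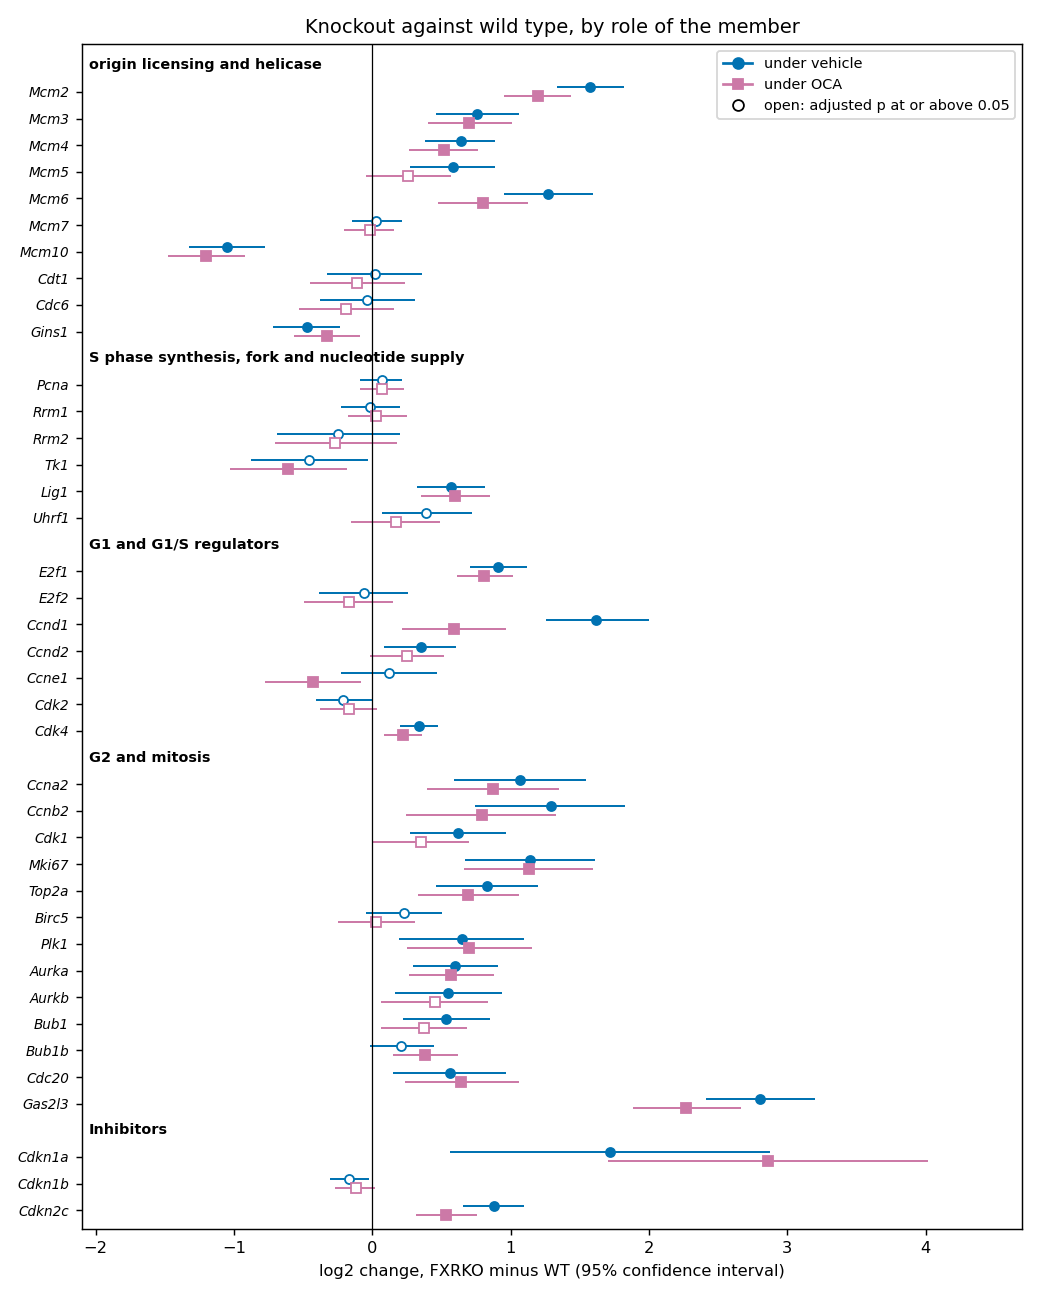
Log2 change of each measured member between FXRKO and WT liver (x axis, with its 95% confidence interval), under vehicle (circles) and under OCA (squares), by role; filled symbols were called. Under vehicle 23 members lie to the right and called, the 5 helicase subunits Mcm2 to Mcm6 and 11 genes of G2 and mitosis among them, and Mcm10 and Gins1 lie to the left and called.

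Mcm2 to Mcm6 encode 5 of the 6 subunits of the replicative helicase. Mcm2 read 5.05, 5.31 and 5.47 (lowest, median and highest array) in WT vehicle, 5.29, 5.38 and 5.85 in WT OCA, 6.58, 6.81 and 7.27 in FXRKO vehicle, and 6.47, 6.60 and 6.99 in FXRKO OCA. All 12 knockout arrays lay above all 12 wild-type arrays. The difference under vehicle was 1.57 ± 0.11 log2 (SE, n = 6 mice per group, 2.97-fold, limma adjusted p = 6.89e-11), and under OCA it was 1.20 ± 0.11 (adjusted p = 8.18e-09).

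Mcm6 read 4.77, 4.95 and 5.33 in WT vehicle, 4.64, 5.15 and 5.62 in WT OCA, 6.00, 6.21 and 6.63 in FXRKO vehicle, and 5.63, 5.98 and 6.33 in FXRKO OCA. The genotypes did not overlap, with a narrow gap under OCA. The change was 1.27 ± 0.15 under vehicle (adjusted p = 4.26e-07) and 0.80 ± 0.15 under OCA (adjusted p = 0.000212). Mcm3 read 4.77, 5.25 and 5.57 in WT vehicle, 4.85, 5.19 and 5.64 in WT OCA, 5.72, 5.98 and 6.36 in FXRKO vehicle, and 5.66, 5.82 and 6.42 in FXRKO OCA. Here too every knockout array lay above every wild-type array, and the changes were 0.76 ± 0.14 (adjusted p = 0.000186) and 0.70 ± 0.14 (adjusted p = 0.000371). Mcm4 read 5.19, 5.44 and 5.65 in WT vehicle, 5.25, 5.27 and 5.59 in WT OCA, 5.74, 5.97 and 6.39 in FXRKO vehicle, and 5.54, 5.80 and 6.21 in FXRKO OCA. It was higher by 0.64 ± 0.12 (adjusted p = 0.00016) under vehicle without overlap, and by 0.52 ± 0.12 (adjusted p = 0.00123) under OCA with overlap. Mcm5 was higher by 0.58 ± 0.15 under vehicle (adjusted p = 0.00351), without overlap, while under OCA its change of 0.26 ± 0.15 did not pass the test (adjusted p = 0.188).

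The helicase genes did not move as a whole. Mcm7, the remaining subunit, stood at 0.03 ± 0.08 under vehicle (95% confidence interval −0.14 to 0.21, adjusted p = 0.827) and at −0.02 ± 0.08 under OCA. The loading factors also stayed near 0 under vehicle, with Cdt1 at 0.02 ± 0.16 and Cdc6 at −0.04 ± 0.16. By group mean Cdc6 lay below the level of unused genes in both vehicle groups. Mcm10, which is not a ring subunit but a factor that helps to activate the loaded helicase, went the other way. It read 6.31, 7.04 and 7.16 in WT vehicle, 6.52, 6.88 and 7.05 in WT OCA, 5.52, 5.89 and 5.93 in FXRKO vehicle, and 5.46, 5.53 and 5.93 in FXRKO OCA. All knockout arrays lay below all wild-type arrays, and Mcm10 was lower by 1.05 ± 0.13 log2 under vehicle (log2 change −1.05, 2.07-fold, adjusted p = 6.48e-07) and by 1.20 ± 0.13 under OCA (log2 change −1.20, adjusted p = 6.93e-08). Gins1, a subunit of the GINS complex of the moving helicase, was lower as well, with −0.47 ± 0.11 (adjusted p = 0.00202) and −0.33 ± 0.11 (adjusted p = 0.0265). With a block for the code number Gins1 lost its call under vehicle (−0.36, adjusted p = 0.0574) and stood at 0.00 ± 0.26 under OCA, where the call was lost in 7 of 24 alternatives, 4 of them fits without 1 array.

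**Figure D2:**
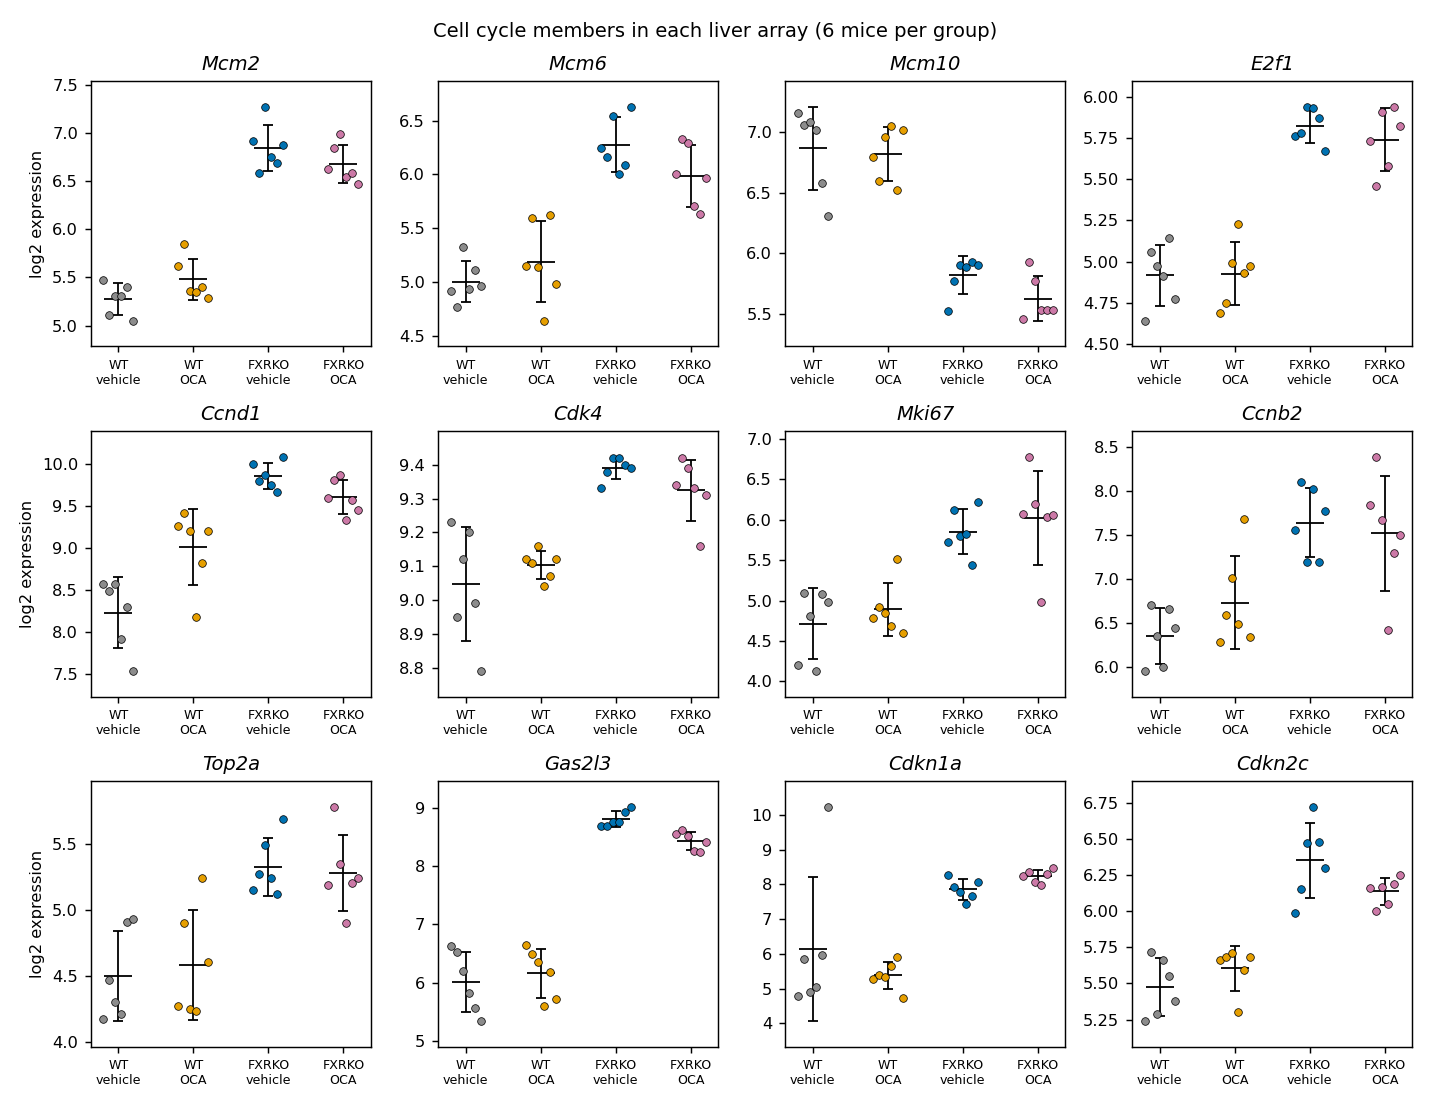
Log2 expression (y axis) of 12 members in each array (points, in replicate order from left to right) of the 4 groups (x axis), with the group mean (bar) and SD (whiskers). Mcm2, Mcm6, E2f1, Gas2l3 and Cdkn2c lie higher and Mcm10 lies lower in all knockout arrays, and WT vehicle replicate 6 alone lies at 10.23 for Cdkn1a.

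Of the 6 genes of S phase Lig1 was called under vehicle, and Lig1 and Tk1 were called in opposite directions under OCA. Pcna, the sliding clamp, read 8.05, 8.10 and 8.15 in WT vehicle, 7.88, 8.10 and 8.29 in WT OCA, 8.06, 8.12 and 8.42 in FXRKO vehicle, and 8.05, 8.11 and 8.37 in FXRKO OCA. The 4 groups overlapped throughout, and the change was 0.07 ± 0.07 under vehicle (95% confidence interval −0.08 to 0.21, adjusted p = 0.536) and 0.07 ± 0.07 under OCA. The ribonucleotide reductase subunits stood at −0.02 ± 0.10 (Rrm1) and −0.25 ± 0.21 (Rrm2), the latter with a confidence interval of −0.68 to 0.19. Tk1, thymidine kinase, stood at −0.46 ± 0.20 under vehicle (adjusted p = 0.0937) and was lower under OCA, at −0.61 ± 0.20 (adjusted p = 0.0225), with overlapping arrays. The call under OCA was lost in 9 of 24 alternatives, 5 of them fits without 1 array, and the mean of its 2 probe sets gave −0.40 (adjusted p = 0.0563). Uhrf1, which couples DNA methylation to replication, stood at 0.39 ± 0.15 (adjusted p = 0.057) and lay near the background level. Under vehicle the limma fit with a code number block called Tk1 lower (−0.66 ± 0.22, adjusted p = 0.032) and Uhrf1 higher (0.67 ± 0.17, adjusted p = 0.00442). Not all alternatives made these 2 calls. Lig1, the ligase that joins Okazaki fragments, read 4.57, 4.90 and 5.27 in WT vehicle, 4.39, 4.97 and 5.11 in WT OCA, 5.31, 5.49 and 5.65 in FXRKO vehicle, and 5.20, 5.50 and 5.75 in FXRKO OCA. Within each treatment the genotypes did not overlap, and the changes were 0.57 ± 0.12 (adjusted p = 0.000558) and 0.60 ± 0.12 (adjusted p = 0.000266).

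Among the regulators of G1, Ccnd1 (cyclin D1) had the largest difference between genotypes under vehicle, while under OCA that of E2f1 was larger. Ccnd1 read 7.54, 8.40 and 8.57 in WT vehicle, 8.18, 9.20 and 9.41 in WT OCA, 9.66, 9.82 and 10.08 in FXRKO vehicle, and 9.33, 9.58 and 9.87 in FXRKO OCA. Both knockout groups lay above the whole WT vehicle group. The WT OCA arrays overlapped those of WT vehicle and, by 1 array, those of FXRKO OCA. The difference between genotypes was 1.62 ± 0.18 under vehicle (3.08-fold, adjusted p = 9.73e-08) and 0.59 ± 0.18 under OCA (adjusted p = 0.0126). With a block for the code number the value under OCA was 0.07 ± 0.41 (adjusted p = 0.942). Since the WT OCA and FXRKO OCA arrays share no code number, that fit links them only through the vehicle groups. The same block without WT vehicle replicate 6 gave 0.45 ± 0.43 (adjusted p = 0.594).

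E2f1, which switches on genes of S phase, read 4.64, 4.94 and 5.14 in WT vehicle, 4.69, 4.95 and 5.23 in WT OCA, 5.67, 5.82 and 5.94 in FXRKO vehicle, and 5.46, 5.77 and 5.94 in FXRKO OCA. All knockout arrays lay above all wild-type arrays, by 0.91 ± 0.10 (adjusted p = 5.54e-08) and 0.81 ± 0.10 (adjusted p = 2.87e-07) on average. E2f2, its close relative, stood at −0.06 ± 0.15 under vehicle. Cdk4, the kinase partner of cyclin D1, read 8.79, 9.06 and 9.23 in WT vehicle, 9.04, 9.11 and 9.16 in WT OCA, 9.33, 9.39 and 9.42 in FXRKO vehicle, and 9.16, 9.34 and 9.42 in FXRKO OCA. Its change was 0.34 ± 0.06 without overlap under vehicle (adjusted p = 0.000176) and 0.22 ± 0.06 with overlap under OCA (adjusted p = 0.00846). With a block for the code number Cdk4 stood at 0.04 ± 0.13 under OCA (adjusted p = 0.882). Ccnd2 passed under vehicle at 0.35 ± 0.13 (adjusted p = 0.0427). Without WT vehicle replicate 6, which read 6.25 against 7.13 to 7.36 in the other 5, Ccnd2 stood at 0.18 ± 0.07 (adjusted p = 0.0715). Cyclin E1 (Ccne1) and Cdk2, which act together at entry into S phase, stood at 0.12 ± 0.16 and −0.21 ± 0.10 under vehicle and did not pass.

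The genes of G2 and mitosis were the role with the most calls. Mki67, the proliferation marker Ki-67, read 4.13, 4.90 and 5.09 in WT vehicle, 4.60, 4.81 and 5.51 in WT OCA, 5.44, 5.81 and 6.22 in FXRKO vehicle, and 4.98, 6.06 and 6.78 in FXRKO OCA. Under vehicle the genotypes did not overlap, and under OCA 1 knockout array, FXRKO OCA replicate 4, fell within the wild-type range. The change was 1.14 ± 0.22 under vehicle (2.20-fold, adjusted p = 0.000329) and 1.13 ± 0.22 under OCA (adjusted p = 0.000307; 0.0635 with a block for the code number). Ccnb2, a B-type cyclin of the mitotic kinase, read 5.96, 6.41 and 6.71 in WT vehicle, 6.29, 6.54 and 7.68 in WT OCA, 7.20, 7.67 and 8.10 in FXRKO vehicle, and 6.43, 7.58 and 8.39 in FXRKO OCA. It was higher by 1.29 ± 0.26 under vehicle without overlap (adjusted p = 0.000404) and by 0.79 ± 0.26 under OCA with wide overlap (adjusted p = 0.0216).

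Ccna2, the cyclin of S phase and G2, read 4.02, 4.65 and 5.55 in WT vehicle, 4.58, 4.74 and 5.82 in WT OCA, 5.56, 5.70 and 6.07 in FXRKO vehicle, and 5.09, 5.75 and 6.43 in FXRKO OCA. The vehicle groups came close without overlapping, and the change was 1.07 ± 0.23 (adjusted p = 0.000813), with 0.87 ± 0.23 under OCA (adjusted p = 0.00455). Top2a, the topoisomerase that untangles chromosomes, read 4.17, 4.38 and 4.93 in WT vehicle, 4.23, 4.44 and 5.24 in WT OCA, 5.12, 5.26 and 5.69 in FXRKO vehicle, and 4.90, 5.22 and 5.78 in FXRKO OCA. It was higher by 0.83 ± 0.17 under vehicle without overlap (adjusted p = 0.000598) and by 0.69 ± 0.17 under OCA with overlap (adjusted p = 0.00293). Top2a has 3 probe sets, and their mean gave smaller changes that still passed, 0.38 under vehicle (adjusted p = 0.00248) and 0.29 under OCA (adjusted p = 0.0156). Cdk1, the mitotic kinase, read 4.21, 4.29 and 4.48 in WT vehicle, 4.10, 4.44 and 5.25 in WT OCA, 4.72, 4.92 and 5.28 in FXRKO vehicle, and 4.48, 4.81 and 5.48 in FXRKO OCA. Its change of 0.62 ± 0.17 passed under vehicle (adjusted p = 0.00572), while 0.35 ± 0.17 under OCA did not (adjusted p = 0.117). Without WT OCA replicate 5, the highest array of its group for Cdk1, the value under OCA was 0.49 and passed.

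Of the mitotic kinases and checkpoint genes, Aurka, Plk1, Aurkb and Cdc20 were higher under vehicle by 0.55 to 0.65 log2. Aurka was called in all 25 alternatives run for this comparison. Bub1 was also called higher, but its group means of 2.81 to 3.36 lay below the level of unused genes, and the filter on dim genes removed it. Plk1, Aurkb and Cdc20 were called with adjusted p of 0.0265, 0.0266 and 0.0343 and lost the call in 8 to 12 of 25 alternatives. Birc5 (survivin) stood at 0.23 ± 0.13 and the checkpoint kinase Bub1b at 0.21 ± 0.11 under vehicle, and neither passed. Bub1b passed under OCA (0.38 ± 0.11, adjusted p = 0.00872), where Aurkb (adjusted p = 0.0673) and Bub1 (adjusted p = 0.0597) did not.

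Gas2l3, a cytoskeletal linker of the central spindle in dividing cells, changed most of the 39 members under vehicle. It read 5.34, 6.01 and 6.63 in WT vehicle, 5.60, 6.26 and 6.64 in WT OCA, 8.70, 8.77 and 9.02 in FXRKO vehicle, and 8.24, 8.47 and 8.63 in FXRKO OCA. The genotypes were far apart, at 2.80 ± 0.19 under vehicle (6.98-fold, adjusted p = 1.31e-11) and 2.27 ± 0.19 under OCA (4.83-fold, adjusted p = 6.23e-10). In the RefSeq gene order Gas2l3 is the direct neighbour of Nr1h4, with 0 protein-coding genes between them, so for Gas2l3 the altered locus and the loss of FXR cannot be told apart. The other members on that chromosome, Cdk4, Cdk2 and Cdk1, lie 173, 247 and 329 protein-coding genes away. Without Gas2l3 the G2 and mitosis genes still counted 10 of 12 higher, Bub1 among them, with a median change of 0.61.

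**Figure D3:**
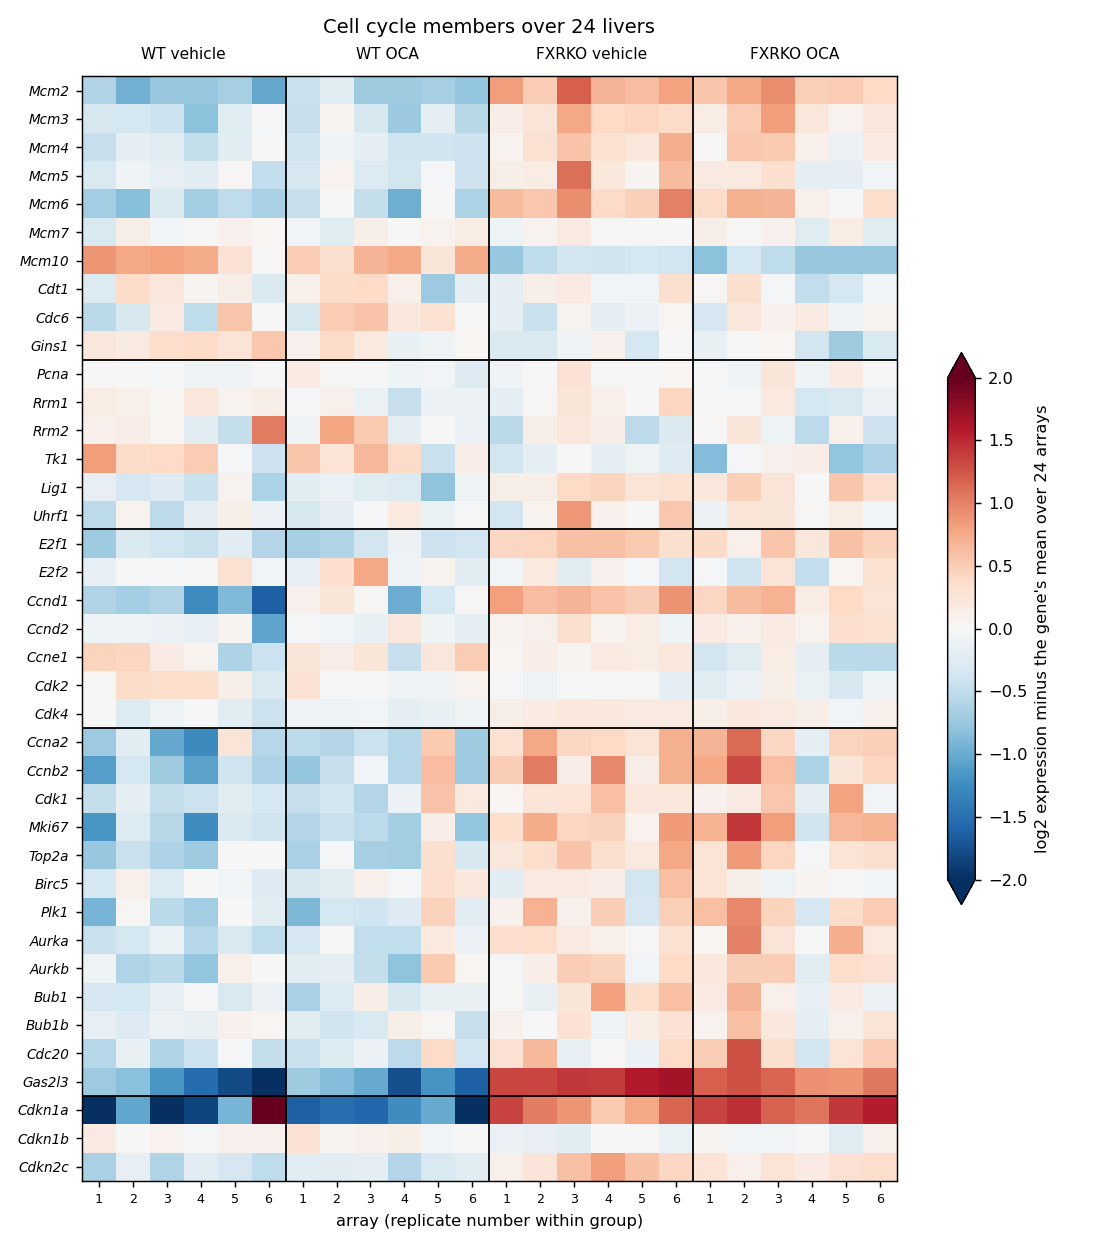
Log2 expression of the 39 measured members (rows, by role) in the 24 arrays (columns, by group and replicate number), shown as the difference from the mean of the gene over all arrays (colour; darkest shades also hold values beyond 2). The block of G2 and mitosis genes is mostly blue in WT arrays and red in FXRKO arrays, apart from WT OCA replicate 5 and FXRKO OCA replicate 4.

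Of the 3 inhibitors Cdkn1a and Cdkn2c were higher in knockout liver and Cdkn1b, by its brightest probe set, did not pass the test. Cdkn1a encodes p21, the CDK inhibitor that p53 induces, and 5 of the 6 WT vehicle arrays read 4.78 to 5.97 while replicate 6 read 10.23. WT OCA read 4.73, 5.36 and 5.90, FXRKO vehicle read 7.43, 7.86 and 8.26, and FXRKO OCA read 7.97, 8.28 and 8.47. Apart from WT vehicle replicate 6, every knockout array lay above every wild-type array. The change under vehicle was 1.72 ± 0.56 (adjusted p = 0.0221) with that array and 2.54 ± 0.21 (5.82-fold, adjusted p = 8.2e-10) without it. Under OCA it was 2.86 ± 0.56 (7.28-fold, adjusted p = 0.000246). That SE is pooled over all 4 groups and so includes the spread from WT vehicle replicate 6. A limma fit of the OCA groups alone gave 2.86 ± 0.16 (adjusted p = 5.6e-09). The same fit of the vehicle groups alone gave 1.72 ± 0.72 and lost the call (adjusted p = 0.101). The call under vehicle was also lost when WT vehicle replicate 1, 3 or 4 was left out in place of replicate 6, with values of 1.45 to 1.51.

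Cdkn2c encodes p18INK4C, an inhibitor of CDK4 and CDK6. It read 5.24, 5.47 and 5.72 in WT vehicle, 5.30, 5.67 and 5.71 in WT OCA, 5.99, 6.39 and 6.72 in FXRKO vehicle, and 6.00, 6.16 and 6.25 in FXRKO OCA. All knockout arrays lay above all wild-type arrays, with changes of 0.88 ± 0.10 (adjusted p = 3.32e-07) and 0.53 ± 0.10 (adjusted p = 0.000244). Cdkn1b (p27) stood at −0.17 ± 0.06 under vehicle (adjusted p = 0.0586) and did not pass. Cdkn1b has 2 probe sets, and their mean was called lower under both treatments. It stood at −0.16 ± 0.06 under vehicle (adjusted p = 0.0473) and at −0.18 ± 0.06 under OCA (adjusted p = 0.0291).

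Under OCA the genotypes were compared in the other 12 mice. There 19 of 39 members were higher and 4 were lower, 59.0% in all, against 30.7% of all genes (17.4% higher and 13.3% lower). The lower genes were Mcm10, Tk1, Ccne1 and Gins1, of which Mcm10 alone was called in all 24 alternatives. Ccne1 (−0.43 ± 0.16, adjusted p = 0.0471) lost its call in 10 of the 12 fits without 1 array and stood at −1.17 ± 0.30 (adjusted p = 0.0106) with a block for the code number. The median change was 0.37 over the members and −0.02 over all genes. The treatments shared 20 calls, 18 higher and 2 lower, with 5 made under vehicle alone and 3 under OCA alone; no call changed direction. A call under 1 treatment alone is no test of a difference, and the test of that difference is given with OCA below. In 8 members all FXRKO OCA arrays lay above all WT OCA arrays and in 1 all lay below, where 10.9% and 7.48% of all genes did so. The block for the code number, which links these groups only through the vehicle arrays, left 11 of the 23 calls and made 3 others (Aurkb, Bub1 and Uhrf1). Mki67 then differed 2.83-fold (adjusted p = 0.0635), with Mcm6 at 0.95 ± 0.37 (adjusted p = 0.103), Ccna2 at 1.44 ± 0.52 (adjusted p = 0.0731) and Ccnb2 at 0.80 ± 0.62 (adjusted p = 0.459), none of them called. Aurka, Plk1, Cdc20 and Bub1b also lost their calls. Among the calls that remained, some values were over 1.5 times larger, with Cdkn1a at 5.45 ± 0.95 and Mcm3 at 1.35 ± 0.31. Mcm4 stood at 1.01 ± 0.26 and Cdkn2c at 0.95 ± 0.21, and Top2a differed 2.83-fold in place of 1.62-fold. Gas2l3 became smaller, from 2.27 to 1.61 ± 0.36. Without WT vehicle replicate 6 the same block links WT OCA to the other groups through a single array, WT vehicle replicate 5. It gave Cdkn1a 3.32 ± 0.47, Mcm3 1.23 ± 0.36 and Cdkn2c 1.03 ± 0.24. Mcm4 was then not called (0.92 ± 0.30, adjusted p = 0.0549), and Gas2l3 stood at 1.72 ± 0.41.

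The spread within groups came partly from single livers in which many mitotic genes stood together. Over the 12 genes of G2 and mitosis other than Gas2l3, the mean difference from the average of all arrays was −0.39 ± 0.21 (SD, n = 6) in WT vehicle, −0.25 ± 0.30 in WT OCA, 0.30 ± 0.18 in FXRKO vehicle and 0.34 ± 0.33 in FXRKO OCA. WT OCA replicate 5 read 0.33 and was the highest of its group in 10 of the 12 genes, and FXRKO OCA replicate 4 read −0.22 and was the lowest of its group in 11. FXRKO OCA replicate 2 read 0.83 and was the highest in 9, and FXRKO vehicle replicate 5 was the lowest in 8. For Mcm2 to Mcm6 the group means were −0.45 ± 0.10, −0.38 ± 0.22, 0.52 ± 0.24 and 0.32 ± 0.24, and other livers led: FXRKO vehicle replicate 3 read 0.92 and FXRKO OCA replicate 3 read 0.66. For the 6 S phase genes the means were within 0.05 of 0 in all 4 groups, with single arrays from −0.26 to 0.33. Opposite changes enter these means, with Lig1 at 0.57 and Tk1 at −0.46 between genotypes under vehicle. The median SD within a group was 0.20 to 0.28 over the members and 0.13 to 0.18 over all genes.

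**Figure D4:**
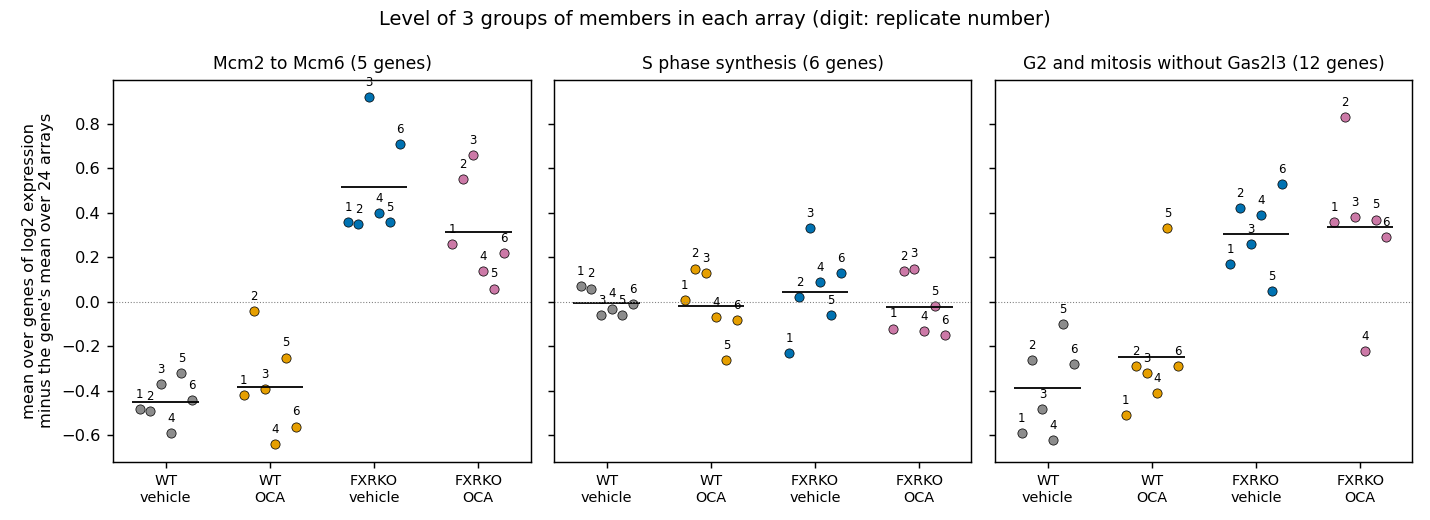
Mean over genes of the log2 difference from the average of all arrays (y axis) in each array (points, with the replicate number) of the 4 groups (x axis), for Mcm2 to Mcm6, the 6 S phase genes, and the 12 genes of G2 and mitosis without Gas2l3; lines are group means. The first and the last set lie higher in most knockout arrays, with WT OCA replicate 5 at 0.33 and FXRKO OCA replicate 4 at −0.22 in the last. The group means of the S phase genes lie near 0, with single arrays from −0.26 to 0.33.

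OCA itself gave no call among the members. In WT liver limma called 0 of 39 members (13 of all genes, 0.0691%), with a median change of 0.09. At an unadjusted p below 0.05 stood 3 members, and 1782 of all 18820 genes. Ccnd1 had the smallest p, at 0.78 ± 0.18 (1.72-fold, 95% confidence interval 0.41 to 1.15, adjusted p = 0.112). All WT OCA arrays but replicate 4, at 8.18, lay above all WT vehicle arrays for this gene. Neither Ccnd1 nor any other member separated wholly, while 0.191% of all genes lay wholly above and 0.266% wholly below. The fit that drops the _2 arrays called Ccnd1 alone (0.0372% of all genes). WT OCA replicate 4 is the only WT array with that ending, so this fit and the next drop the same WT array. Without replicate 4 alone the change was 0.95 ± 0.15 and passed (adjusted p = 0.0115), and with a block for the code number it was 1.09 ± 0.25 and passed (adjusted p = 0.0153). That block compares the WT OCA arrays with WT vehicle replicates 5 and 6, and without replicate 6 it gave 0.71 ± 0.31 (adjusted p = 0.355). The same block called 3 members in all (3.54% of all genes), the others being Ccne1 (0.67 ± 0.18, adjusted p = 0.0406) and Cdkn1a (−2.72 ± 0.57, adjusted p = 0.0115), and neither was called without replicate 6 (Ccne1 0.78 ± 0.24, Cdkn1a −0.59 ± 0.33). In the fit without the block Cdkn1a stood at 0.06 ± 0.21 once replicate 6 was left out.

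In FXRKO liver OCA also gave 0 calls among the members (0.0159% of all genes). There 3 members had an unadjusted p below 0.05, as had 968 of all 18820 genes. Gas2l3 stood at −0.38 ± 0.19 (adjusted p = 0.977), although all 6 OCA arrays lay below all 6 vehicle arrays (0.351% of all genes did so, and 0.303% lay above), and Ccne1 stood at −0.42 ± 0.16 (adjusted p = 0.9). The difference of the OCA effects between genotypes was called for 0 members and 0 of all genes (0.0%). An unadjusted p below 0.05 was found for 5 members and for 1140 of all 18820 genes. The smallest p of this difference among the members was that of Ccnd1, at −1.03 ± 0.25 (adjusted p = 0.295). Ccne1, Cdkn2c, Mcm2 and Mcm6 followed and stood between −0.55 and −0.34.

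Other cell cycle genes were taken from lists of the same pathways, and under vehicle the share called ranged from 12.9% to 69.7% by list, against 27.5% of all genes (15.4% higher, 12.1% lower). Of 33 further genes of mitosis with a value, 21 were higher and 2 lower in FXRKO liver, with a median of 0.42. They include Ect2, a regulator of cytokinesis (1.69 ± 0.19, adjusted p = 2.05e-07) and Mad2l1 of the spindle checkpoint (1.04 ± 0.13, adjusted p = 7.03e-07). Of 31 further replication genes 2 were higher and 2 lower, a share of 12.9% that lies below that of all genes, with a median of 0.14, and Chaf1a, a chromatin assembly factor, was among the higher (0.77 ± 0.10, adjusted p = 1.52e-06). Of 21 further genes of G1 and the retinoblastoma pathway 5 were higher, Cdk6 among them (0.66 ± 0.10, adjusted p = 7.4e-06), and 4 were lower, among them Tfdp2, a partner of E2F (−0.61 ± 0.08, adjusted p = 1.09e-06). Of 13 further inhibitors and p53 targets 6 were higher and 0 lower. Ccng1, a p53 target, rose by 1.04 ± 0.06 (adjusted p = 2.55e-13), Gadd45b, a stress gene, by 2.47 ± 0.24 (adjusted p = 1.61e-08), and Phlda3, a p53 target, by 0.91 ± 0.13 (adjusted p = 3.75e-06). Under OCA the higher and lower counts were 20 and 2 for mitosis, 3 and 1 for replication, 6 and 4 for G1, and 7 and 0 for inhibitors and p53 targets, or 66.7%, 12.9%, 47.6% and 53.8% called, against 30.7% of all genes. Nek2, a centrosome kinase, was among the mitotic genes higher under OCA (0.96 ± 0.14, adjusted p = 5.76e-06). These lists were also chosen with results of these data known.

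Some markers of other liver cells moved with genotype as well, in whole liver that holds them all. Under vehicle 15.4% of all genes were higher and 12.1% were lower, and some of the counts below lie near these shares. Under vehicle all 7 stellate cell markers were higher, with a summed signal of 2060 to 2840 in WT vehicle and 3710 to 4620 in FXRKO vehicle. Of the 6 measured monocyte and macrophage markers 5 were higher (527 to 861 against 1440 to 1770), with Gpnmb at 3.42 log2. Of 8 Kupffer cell markers 4 were higher and 1, Cd163, was lower (1800 to 3300 against 2920 to 3520), and 2 of 5 cholangiocyte markers, Krt19 and Epcam, were higher (140 to 200 against 160 to 205). Of the hepatocyte markers 2 of 6, Serpina1c and Cps1, were lower (47900 to 52000 against 43700 to 46800), with Alb at −0.08 (adjusted p = 0.204). Erythroid markers had 2 of 4 lower, Alas2 and Klf1 (691 to 768 against 366 to 441), and endothelial markers had 1 of 6 lower, Kdr (2260 to 2810 against 1890 to 2520). No T or NK cell (6 measured), B cell (5) or neutrophil marker (4) was called by limma. At an unadjusted p below 0.05 stood 2, 1 and 0 of them, and 7061 of all 18820 genes. Their summed signals were 79.4 to 120, 92.3 to 107 and 39.5 to 89.9 in WT vehicle. In FXRKO vehicle the sums were 79 to 98.1, 76.6 to 94.7 and 40.9 to 48.5. Under OCA 17.4% of all genes were higher and 13.3% lower. There all 7 stellate and 5 of 6 monocyte and macrophage markers were higher. Of the Kupffer cell markers 5 were higher and 1 lower, and 2 of 4 erythroid markers were lower. Other lists differed from vehicle, with 5 of 6 hepatocyte markers lower, 0 of 5 cholangiocyte markers called and 1 of 6 endothelial markers higher. The part of these cells in the cell cycle result was not tested.

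The count under vehicle was recomputed for the doubtful arrays. Without WT vehicle replicate 6 it was 21 higher and 4 lower, against 29.0% of all genes called (15.8% higher, 13.2% lower), with Cdk2 (−0.30 ± 0.08, adjusted p = 0.00687) and Tk1 (−0.59 ± 0.19, adjusted p = 0.0216) now lower. Among the 8 vehicle arrays that bear code number 7 it was 24 higher and 4 lower, against 24.1% (13.9% higher, 10.1% lower). The count under OCA fell to 14 with a block for the code number (against 12.4% of all genes) and to 14 once the 4 OCA arrays named with a final _2 were dropped (20.5%); the block without WT vehicle replicate 6 gave 11 (9.74%). A block for replicate number gave 27 under vehicle (26.9%) and 22 under OCA (30.3%).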

How the data were processed

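Gene expression was measured in 24 mouse livers with whole-transcript arrays. The deposited log2 values, made by the authors with RMA per the submitters' processing notes, were used as given; the log base is not stated and was taken from their range (0.873 to 13.596). The table held 35556 probe sets, of which 21218 had 1 gene symbol, and the probe set with the highest mean was kept for each of 18820 genes. One model with 4 group means was fitted to all arrays (R 4.3.3; lmFit and eBayes of limma 3.58.1), with Benjamini-Hochberg adjustment over all genes and calls at adjusted p below 0.05. No detection calls were used, and arrays limit precision by their number. Replicates are separate mice per the labels. The members, roles and companion lists were chosen with earlier results of these data known. Values in full are given for the 16 called members with the smallest p, and always for Ccnd1, Cdkn1a, Mki67, Pcna, Mcm2, Top2a, Cdk1 and Gas2l3 (Foxm1, also in this rule, has no value); companions were named by smallest p, at most 8 per comparison. Alternatives covered centring, quantile normalization, a filter on dim genes, trend and robust eBayes, array weights, the compared groups alone, code number and replicate blocks, arrays ending in _2, the mean of probe sets, and each array in turn. The fits were tested on simulated data. Promoters came from RefSeq GRCm38.p6. Replicate numbers did not pair the mice: of 36 same-numbered pairs, 2 correlated above 0.1 (range −0.08 to 0.17).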

Additional observations from a re-analysis of the deposited data

Results flagged for a closer look

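In 156 groups of 6 arrays (39 members in 4 groups), 8 single arrays stood far from the rest of their group by Dixon's criterion, which flags about 1 group in 20 by chance. The 8 found among 156 lie near that share. The cause was not tested for any of them. WT vehicle replicate 6 gave 2 of the 8, Cdkn1a at 10.23 (the other arrays read 4.78 to 5.97) and Ccnd2 at 6.25 (7.13 to 7.36). That array also read highest of its group for the stress genes Btg2 (7.88), Gadd45g (10.81) and Gadd45b (6.46), which were looked up after its values were seen. WT OCA replicate 5 gave 3, namely Mki67 at 5.51 (4.60 to 4.92), Ccna2 at 5.82 (4.58 to 4.86) and Lig1 at 4.39 (4.93 to 5.11); the first pair lay above its group and Lig1 lay below. The remaining 3 were Pcna at 8.42 in FXRKO vehicle replicate 3 (8.06 to 8.17), E2f2 at 4.80 in WT vehicle replicate 5 (4.33 to 4.50) and Cdkn2c at 5.30 in WT OCA replicate 4 (5.59 to 5.71).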

How the results depend on the processing

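Under vehicle the count of called members lay between 21 and 28 in all 25 alternatives. Of all 18820 genes 5174 were called in the fit used throughout, 4281 with the code number block and 10130 with centring on the named genes. A steady count of members is thus no steady excess over all genes. In every alternative 18 of the 25 members were tested and called (Bub1, removed by the filter on dim genes, was called in the other 24). Under OCA 8 of 23 were, namely Cdkn1a, Cdkn2c, E2f1, Gas2l3, Lig1, Mcm10, Mcm2 and Mcm3. There the count was 14 with the code number block (12.4% of all genes) and 14 with the _2 arrays dropped (20.5%). It was 11 with the block and without WT vehicle replicate 6 (9.74%), an alternative chosen after seeing the data. In that fit WT vehicle replicate 5 alone links WT OCA to the other groups. Leaving out each array gave 20 to 24 members, with 5349 to 5545 of all 18820 genes called. Under the block Gins1 stood at 0.00111 in place of −0.33, and at −0.14 once WT vehicle replicate 6 was left out as well. For OCA in WT liver the count of 0 became 3 with the code number block and 1 with the _2 arrays dropped, and leaving out each array gave 0 to 1. The only WT array among the _2 arrays is WT OCA replicate 4, so the fit without it is no separate check. With the replicate block the counts were 27 under vehicle and 22 under OCA, and 0 for both OCA comparisons. Centring on the named genes (chosen after seeing the data) moved the median of all genes from −0.03 to −0.20 under vehicle, with 1776 genes higher and 8354 lower in place of 2903 and 2271; the members then counted 19 higher and 5 lower, median 0.38. Under OCA the same centring gave 16 and 9, and quantile normalization gave 20 and 3 under vehicle and 18 and 4 under OCA. The cause of these shifts was not tested.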
